A study of Mus musculus with 40 samples.

Results

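The right kidney's genes for water and urea transport and for the response to vasopressin were followed after the left kidney had been removed. They are 10 genes chosen by name: the vasopressin receptors Avpr2 and Avpr1a, the adenylyl cyclase Adcy6, the aquaporins Aqp2, Aqp3, Aqp4, Aqp7 and Aqp11, and the urea transporters Slc14a1 and Slc14a2. All 10 were found among the 28467 genes of the bulk table and among the 32285 genes of the table of single nuclei. The mice were male C57BL/6 animals of 8 to 12 weeks. In the unilateral nephrectomy (UNx) groups the left kidney was taken out, and in the sham groups the same operation was done without taking it out. Isoflurane, saline and buprenorphine were given in all groups. RNA came from cross-sections of the right kidney of 6 sham and 6 UNx mice at each of 24, 48 and 72 h, and nuclei came from 2 sham and 2 UNx mice at 24 h. No cell type was isolated before the RNA was taken, so each bulk library mixes cortex and medulla in the proportions of its section.

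Vasopressin is the pituitary hormone that sets how concentrated the urine is. In principal cells of the collecting duct it binds the receptor encoded by Avpr2, which raises cyclic AMP through adenylyl cyclases such as the product of Adcy6. Cyclic AMP sends the water channel aquaporin-2 to the apical membrane, and aquaporins 3 and 4 let the water leave across the basolateral side. Urea transporters encoded by Slc14a2 in the inner medulla and by Slc14a1 in the descending vasa recta keep urea in the medulla, which holds the gradient that draws water out.

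The promoters of the receptors and of Aqp2 are shown because the receptors were called in bulk and Aqp2, the water channel that the hormone moves, was read in the same classes as Avpr2. Each is the 250 bases before the RefSeq gene start in GRCm38.p6, on the gene's own strand, with capitals marking the matches of a motif search.

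Avpr2, chrX:73891852-73892101: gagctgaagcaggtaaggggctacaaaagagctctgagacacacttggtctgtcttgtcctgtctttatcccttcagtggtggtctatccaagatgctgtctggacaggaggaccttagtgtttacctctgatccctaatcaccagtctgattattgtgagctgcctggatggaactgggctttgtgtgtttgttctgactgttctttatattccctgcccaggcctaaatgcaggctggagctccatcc
Avpr1a, chr10:122448249-122448498: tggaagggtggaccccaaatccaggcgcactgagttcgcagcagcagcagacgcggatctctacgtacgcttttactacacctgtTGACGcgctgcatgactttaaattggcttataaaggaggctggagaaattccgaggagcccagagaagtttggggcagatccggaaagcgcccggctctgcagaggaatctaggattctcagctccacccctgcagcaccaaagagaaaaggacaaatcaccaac
Aqp2, chr15:99578806-99579055: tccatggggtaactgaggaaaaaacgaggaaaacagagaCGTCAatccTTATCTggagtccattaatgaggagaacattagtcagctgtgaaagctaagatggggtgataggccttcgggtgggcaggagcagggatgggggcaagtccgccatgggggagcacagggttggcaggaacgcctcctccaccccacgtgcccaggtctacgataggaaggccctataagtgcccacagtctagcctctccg

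The motifs searched, on both strands, were the cyclic AMP response element TGACGTCA, its shorter core TGACG (which the full element contains), the tonicity element core TGGAAA, the GATA site AGATAA and the AP-1 site TGANTCA. In Aqp2 the shorter core was read on the opposite strand as CGTCA at bases 211 to 207 before the start, and the GATA site as TTATCT at bases 202 to 197. In Avpr1a the shorter core stood at bases 165 to 161. The Avpr2 window held none of the 5 motifs. The shorter core was present in 17.8% and the GATA site in 9.99% of 32851 mouse promoter windows of the same length, so these matches are a description of the letters.

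Bulk values are given as CPM, counts scaled to a library's total after TMM scaling. The libraries held 14868494 to 24108587 estimated counts. The share of mitochondrially encoded counts was 23.5 to 26.7% in the 24 h shams and 21.5 to 24.9% in UNx at 24 h, which together form the labelled batch 1. At 48 and 72 h, labelled batch 2, it was 13.6 to 16.1% in all libraries other than UNx replicates 1 to 5 at 48 h, which had 25.8 to 26.4%, whereas UNx replicate 6 at 48 h had 15.2%. Every 48 h comparison therefore also compares libraries that differ in this share, and apart from UNx replicate 6 the operation and the share cannot be told apart there. A gene was called when its adjusted p in edgeR's quasi-likelihood test was under 0.05, and p-values measure the spread between mice. In bulk tissue, fewer cells of a type and less RNA per cell cannot be told apart.

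The content of medulla differed between sections. It was read from a medulla score, the mean log2 CPM of 6 medulla markers, among them Cryab, Slc4a11, Fst and Bst1, and none of the 6 was at 0 in any library. The score did not differ between UNx and sham beyond the spread at 24 h (UNx minus sham 0.19, exact two-sided permutation p = 0.450), at 48 h (-0.55, p = 0.177) or at 72 h (0.10, p = 0.725), with adjusted p of 0.771, 0.571 and 0.816 over 45 tests of lists and times. Its range within groups was wide, from 3.41 to 5.37 among the 48 h shams and from 3.69 to 5.31 among the UNx mice at 72 h. At 24 h it ran from 3.35 to 4.57 in shams and from 4.01 to 4.66 in UNx. Shams 4 and 6 of 24 h (3.35 and 3.76) lay below every UNx library of that time. The small heat-shock protein gene Cryab, abundant in inner medulla, stood at 346 and 279 CPM in shams 1 and 3 of 48 h, at 359 in sham 5 of 72 h and at 542 in UNx replicate 6 of 72 h, against 45.1 to 144 in the other 32 libraries.

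Among the 12 shams of 48 and 72 h, where no kidney had been removed, 8 of the 10 genes followed the medulla score. Other genes were not correlated with the score, so this count has no share over all genes beside it. Aqp2 had Pearson r = 0.963 and Spearman rho = 0.902 (n = 12, permutation test with 100000 resamples, adjusted p = 1e-04 for r and 0.000525 for rho). Positive r values were also found for Slc14a1 (0.941), Slc14a2 (0.940), Avpr2 (0.932), Aqp4 (0.915), Aqp3 (0.833) and Adcy6 (0.815), with permutation adjusted p of at most 0.00135, and their rho values were 0.783 to 0.944 (permutation adjusted p at most 0.00539). Aqp11, an intracellular aquaporin of the proximal tubule, ran the other way (r = -0.847, rho = -0.762, permutation adjusted p = 0.000950 for r and 0.00667 for rho). Without shams 3 and 1 of 48 h, the libraries farthest from the median score, r stayed at 0.926 for Aqp2, 0.942 for Slc14a1 and -0.796 for Aqp11, and at 0.755 or more for the other positive genes. For Aqp7 (r = -0.510, permutation adjusted p = 0.102) and Avpr1a (r = -0.474, permutation adjusted p = 0.121) no relation passed the threshold. Within the 6 shams of each time the Aqp2 values were 0.979 at 48 h and 0.958 at 72 h. The fitted slope was a gain of 1.32 on the log2 scale per unit of score for Aqp2 and of 1.85 for Aqp4.

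**Figure D1:**
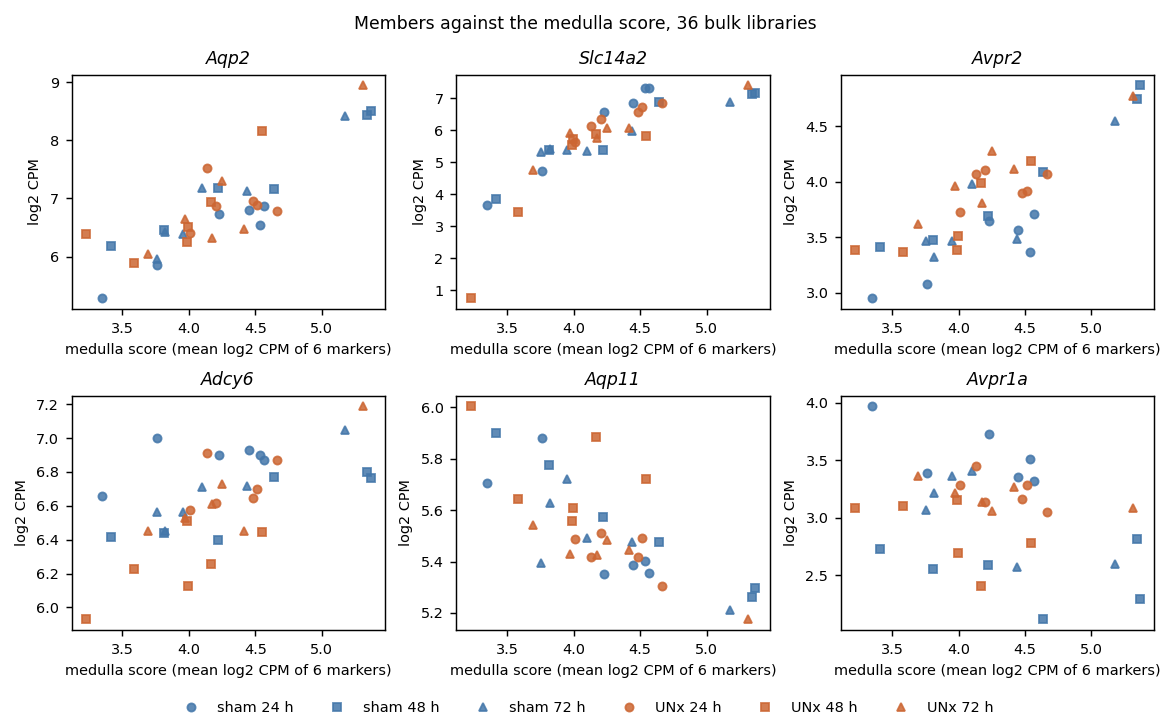
Log2 CPM of 6 genes (y axis) against the medulla score (x axis, mean log2 CPM of 6 markers) in the 36 bulk libraries, with sham in blue, UNx in orange and the time as the symbol. Aqp2, Slc14a2 and Avpr2 rise with the score, Aqp11 falls, and shams 1 and 3 of 48 h, sham 5 of 72 h and UNx replicate 6 of 72 h lie at the right-hand end.

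At 24 h the vasopressin V2 receptor gene rose after nephrectomy and the V1a receptor gene fell. These were the 2 called members of 10, in a comparison in which 27.3% of 14104 tested genes were called (14.2% higher, 13.1% lower). The median log2 fold change of the 10 genes was 0.03, against 0.01 for all genes tested, with 5 of 10 positive. The members as a group thus did not stand out from the other genes at this time.

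Avpr2 (ENSMUSG00000031390, chromosome X, 73892102 to 73895502 in GRCm38) had a lowest, median and highest value of 7.62, 11.0 and 13.0 CPM in the 6 shams of 24 h. The corresponding values in the 6 UNx mice were 13.2, 15.8 and 17.1 CPM. The groups did not overlap, by a narrow gap: the highest sham had 13.0 CPM and the lowest UNx library 13.2 CPM. How many of all tested genes separated the groups in this way was not counted. The means were 10.6 ± 2.22 and 15.6 ± 1.52 CPM (SD, n = 6), a log2 fold change of 0.57 (SE 0.12, edgeR adjusted p = 0.00374). With the medulla score as a covariate it was 0.50 (edgeR adjusted p = 0.00203, with 25.6% of genes called), and leaving out any library gave 0.48 to 0.64. The call ended with the mitochondrial share as a covariate (0.40, edgeR adjusted p = 0.173) and when all 36 libraries shared one fit (0.56, edgeR adjusted p = 0.0846). The gene lies wholly inside the annotated bounds of L1cam and Arhgap4, which are read from the opposite strand. L1cam was at 54.4 ± 8.04 CPM in shams and 53.0 ± 8.46 in UNx at 24 h (SD, n = 6, log2 fold change -0.03, edgeR adjusted p = 0.873), and Arhgap4 differed by 0.02 on the same scale (edgeR adjusted p = 0.945).

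Avpr1a (ENSMUSG00000020123, chromosome 10, 122448499 to 122453452) encodes a receptor that signals through calcium. Its lowest, median and highest values were 9.91, 10.8 and 15.6 CPM in the 24 h shams, and 8.16, 9.25 and 10.8 CPM in UNx. The groups overlapped in the range 9.91 to 10.8 CPM, and sham 4 was the highest library. The log2 fold change was -0.33 (SE 0.11, edgeR adjusted p = 0.0437), from 11.7 ± 2.23 to 9.30 ± 0.933 CPM (SD, n = 6). The call was fragile: it ended when sham 3, 4 or 5 or UNx replicate 1, 2, 3, 4 or 5 was left out (edgeR adjusted p = 0.0621 to 0.103), with the medulla score as a covariate (-0.25, edgeR adjusted p = 0.0672), and with the mitochondrial share, where the value was -0.00. The values of -0.25 and -0.00 are differences on the log2 scale.

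For Adcy6, a calcium-inhibited adenylyl cyclase of the distal nephron, the 24 h value was -0.14 on the log2 scale (edgeR adjusted p = 0.141). The medians were 119 CPM in shams and 102 in UNx. Of the water channels, Aqp2 had 38.8, 99.4 and 117 CPM as the lowest, median and highest sham values and 84.5, 118 and 183 in UNx. The ranges overlapped, with shams 4 and 6 below every UNx library, and the log2 fold change of 0.50 (SE 0.23) did not pass the test (edgeR adjusted p = 0.124). Aqp3, the basolateral channel that also carries glycerol, went from 64.2, 78.9 and 93.1 CPM in shams to 83.0, 88.7 and 118 in UNx, a log2 fold change of 0.25 (SE 0.10, edgeR adjusted p = 0.0680). It was called once sham 1 was left out (0.31, edgeR adjusted p = 0.0257). With the score of 6 principal cell markers as a covariate, Aqp2 (0.37, edgeR adjusted p = 0.0106) and Aqp3 (0.18, edgeR adjusted p = 0.0243) were both called, where 28.3% of genes were, and the Avpr1a call ended (-0.31, edgeR adjusted p = 0.0607). Aqp4 (-0.09), Aqp7 (0.14), Aqp11 (-0.08), Slc14a1 (0.16) and Slc14a2 (-0.13) had edgeR adjusted p of 0.281 or more. Slc14a2 ranged from 12.7 to 160.3 CPM within the shams alone, and its 2 lowest values were those of shams 4 and 6.

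Markers of neighbouring cell types were read in the same libraries. At 24 h none of the 6 principal cell markers was called, and their summed level was 209 to 249 CPM in shams and 197 to 258 in UNx. Of the 3 connecting tubule markers, Calb1 (0.67) and Slc8a1 (0.36) were called higher, and the summed level was 299.6 to 419 CPM in shams and 366 to 564 in UNx. Of the 6 intercalated cell markers, Slc26a4 (-0.22) and Atp6v0d2 (-0.39) were called lower, with summed levels of 218 to 228 CPM in shams and 193 to 248 in UNx. No marker of these 3 lists was at 0 in every library. The part of the connecting tubule and intercalated markers in the Avpr2 and Avpr1a values was not tested. Of 3 tested urothelium markers Krt5 was called higher (2.93), and the list's summed level was 0.890 to 9.29 CPM in shams and 1.73 to 61.6 in UNx. The urothelium score did not differ beyond the spread (exact permutation p = 0.251, adjusted p = 0.698). The part of urothelium in the Slc14a1 and Slc14a2 values was not tested.

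**Figure D2:**
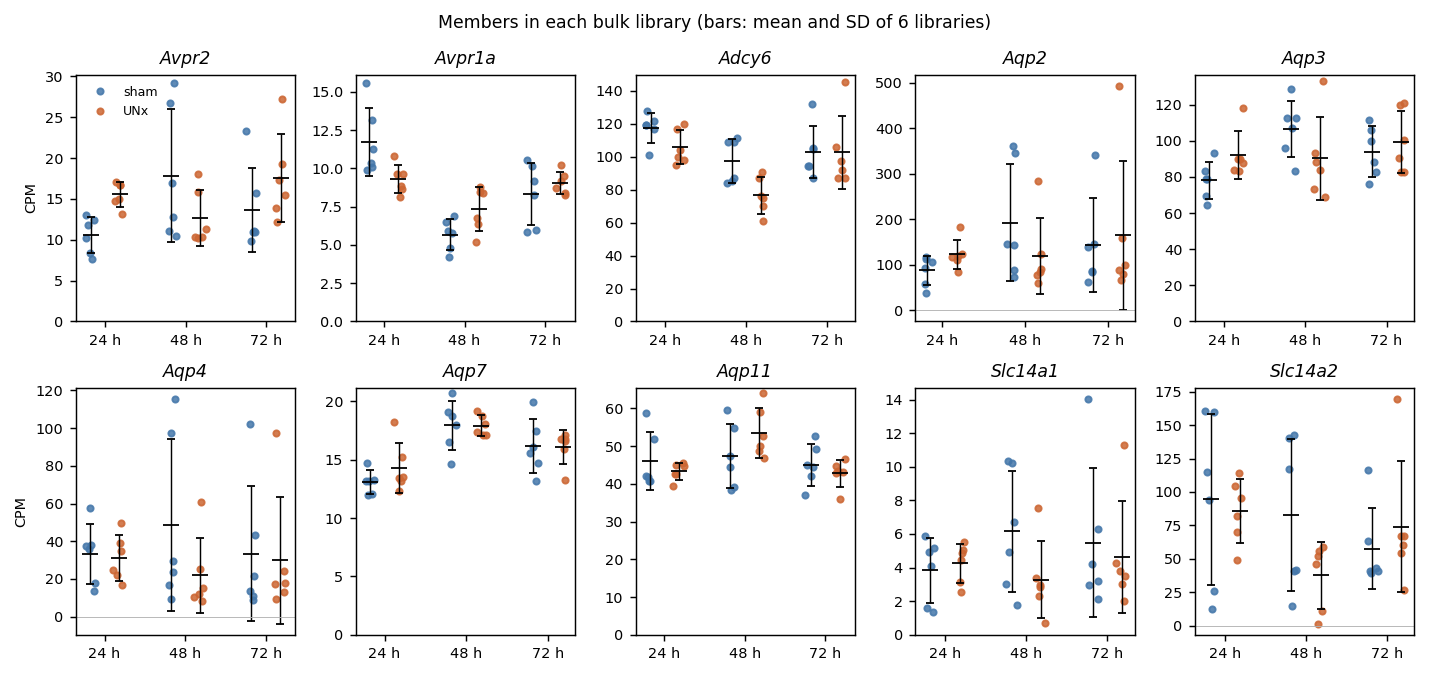
CPM (y axis) of the 10 genes in each bulk library by time (x axis), with sham in blue and UNx in orange. The bars are the mean and SD of 6 libraries. For Avpr2 at 24 h the groups do not overlap, by a narrow gap. At 48 and 72 h a few libraries carry the high values of Aqp2, Aqp4 and Slc14a1.

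At 48 h the cyclase gene Adcy6 fell, and no other of the 10 genes was called. The background was high, with 32.9% of 14280 tested genes called (16.9% higher, 16% lower). The median log2 fold change of the 10 genes was -0.44, against -0.04 for all genes tested, and 2 of the 10 were positive. Adcy6 (ENSMUSG00000022994, chromosome 15, 98589973 to 98610076) had 84.3, 97.8 and 111 CPM as the lowest, median and highest sham values and 60.8, 75.5 and 90.9 in UNx. The groups overlapped, with 4 of 6 UNx libraries below every sham. The means were 97.6 ± 13.3 and 76.6 ± 11.1 CPM (SD, n = 6), a log2 fold change of -0.37 (SE 0.11, edgeR adjusted p = 0.0179). With the medulla score as a covariate the value was -0.23 (edgeR adjusted p = 0.0488, with 27.5% of genes called). Without shams 1 and 3 together it was -0.27 (edgeR adjusted p = 0.0980), without UNx replicates 1 to 5 it was -0.37 (edgeR adjusted p = 0.408), and with the mitochondrial share it was -0.37 (edgeR adjusted p = 0.498). The last 2 settings left no gene called of 14280 and so leave little to read.

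The collecting duct and urea genes had larger fold changes at 48 h that did not pass the test. Aqp2 had 72.0, 144 and 362 CPM as the lowest, median and highest sham values and 59.4, 87.6 and 284 in UNx. Shams 1 and 3 and UNx replicate 2 lay far above the others, and the log2 fold change was -0.70 (SE 0.45, edgeR adjusted p = 0.239). Aqp4 had 9.61, 26.7 and 115 CPM in shams and 8.45, 13.6 and 60.8 in UNx, with the same 3 libraries on top and a log2 fold change of -1.16 (SE 0.62, edgeR adjusted p = 0.160). Slc14a2, the tubular urea transporter, had 14.5, 79.3 and 143 CPM in shams and 1.57, 49.1 and 58.7 in UNx. Its log2 fold change was also -1.16 (SE 0.64, edgeR adjusted p = 0.175), and the 1.57 CPM came from UNx replicate 1, the library with the lowest medulla score of all. Slc14a1 (-0.93, edgeR adjusted p = 0.142), Avpr2 (-0.51, edgeR adjusted p = 0.147), Aqp3 (-0.26, edgeR adjusted p = 0.182) and Avpr1a (0.35, edgeR adjusted p = 0.0940) did not pass either. Aqp7 (-0.02) and Aqp11 (0.16) were the closest to 0 of the 10 genes.

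With the medulla score as a covariate most of these 48 h values were smaller in size. On the log2 scale they were 0.10 for Aqp2, 0.04 for Aqp4 and -0.09 for Slc14a2. Those for Slc14a1, Avpr2 and Aqp3 were -0.15, -0.01 and -0.09. All of these genes followed the score among the later shams, so the fit cannot separate them from it. The part of medulla content in the 48 h values was not tested. Leaving out shams 1 and 3 together, an unplanned setting, gave 0.08 for Aqp2, 0.13 for Aqp4 and -0.03 for Avpr2. No member was then called among 3487 called genes. These shams lay far above the others for Aqp2 and Aqp4, so removing them raises those values by itself. Leaving out UNx replicate 2, the UNx library with the highest Aqp2, moved the other way. Aqp2 (-1.17), Aqp3 (-0.40), Aqp4 (-1.77) and Slc14a1 (-1.35) were then called beside Adcy6, with edgeR adjusted p of 0.0191 to 0.0437. Leaving out UNx replicate 6 called Avpr1a (0.45, edgeR adjusted p = 0.0195). With the principal cell score as a covariate 6 members were called, where 33.9% of genes were, among them Aqp2 (-0.53, edgeR adjusted p = 0.00202) and Avpr2 (-0.38, edgeR adjusted p = 0.0324). Of the 6 medulla markers Fst was called lower at 48 h (-1.02), and the summed level of the 6 was 120.5 to 566 CPM in shams and 144 to 328 in UNx.

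**Figure D3:**
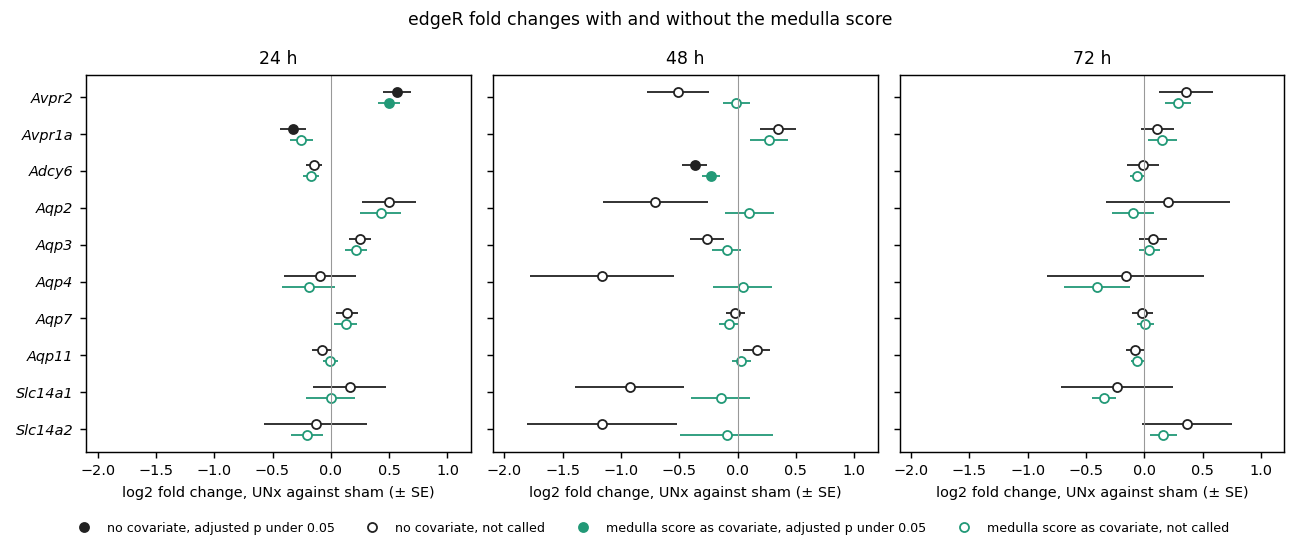
Log2 fold change of UNx against sham (x axis, ± SE) for each gene (y axis) at 24, 48 and 72 h, without a covariate in black and with the medulla score as a covariate in green. Filled points have an adjusted p under 0.05: Avpr2 and Avpr1a at 24 h and Adcy6 at 48 h without the covariate, and Avpr2 and Adcy6 with it.

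At 72 h none of the 10 genes was called, in a comparison in which 1.71% of 14556 genes were called (1.21% higher, 0.502% lower). The median log2 fold change of the 10 genes was 0.03, against -0.00 for all genes tested. Avpr2 had 9.88, 11.0 and 23.3 CPM in shams and 12.2, 16.4 and 27.3 in UNx, with one high library in each group and a log2 fold change of 0.36 (SE 0.23, edgeR adjusted p = 0.470). It was 0.40 (edgeR adjusted p = 0.115) without those high libraries, sham 5 and UNx replicate 6, and 0.39 (edgeR adjusted p = 0.0329) with the principal cell score as a covariate, where 4.18% of genes were called. The same pair of libraries set the range of Aqp2, which was 61.8 to 342 CPM in shams and 65.7 to 493 in UNx. Its medians were 112 and 94.4 CPM, and its log2 fold change of 0.20 (SE 0.53, edgeR adjusted p = 0.892) became -0.08 without the pair. Slc14a2 had medians of 41.9 and 63.4 CPM (log2 fold change 0.36, edgeR adjusted p = 0.691). Adcy6 (-0.01), Aqp3 (0.07), Aqp7 (-0.02), Aqp11 (-0.08), Avpr1a (0.11), Aqp4 (-0.16) and Slc14a1 (-0.24) had edgeR adjusted p of 0.631 or more. No library left out alone brought a member past the threshold at 72 h.

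The effect of nephrectomy was compared between times in one fit of all 36 libraries, each time against its own shams. From 24 to 48 h the effect differed for 3 of the 10 genes, where 37% of 15093 genes differed. The Avpr2 effect was lower at 48 h by 1.05 on the log2 scale (difference -1.05, SE 0.34, edgeR adjusted p = 0.0132), and -0.48 with the medulla score (edgeR adjusted p = 0.0193). The Avpr1a effect was higher by 0.70 (SE 0.21, edgeR adjusted p = 0.00708), and by 0.51 with the medulla score (edgeR adjusted p = 0.0348). The Aqp3 effect was lower (-0.48, SE 0.19, edgeR adjusted p = 0.0419), and the call ended with the medulla score (-0.29, edgeR adjusted p = 0.149). With the principal cell score Aqp2 was called as well (-0.85, edgeR adjusted p = 0.000240). Avpr1a was also lower in all 48 h shams (4.22 to 6.91 CPM) than in any 24 h sham (9.91 to 15.6 CPM), and these shams belong to different labelled batches. In the 48 h UNx group, replicates 2, 4 and 6 lay within the sham range, with 6.78, 6.36 and 5.19 CPM, and replicates 1, 3 and 5 lay above it, with 8.38, 8.81 and 8.48. Without replicates 1 to 5 the 48 h value of Avpr1a was -0.14 and that of Avpr2 was -0.19. Between 48 and 72 h no member differed (14.6% of genes did). Avpr2 came nearest (0.86, edgeR adjusted p = 0.0751) and was called when UNx replicate 6 of 48 h was left out (0.93, edgeR adjusted p = 0.0428). Between 24 and 72 h, where 4.15% of genes differed, no member was called.

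Other genes of the pathway were read from lists of named genes. Over all tested genes 14.2% were called higher and 13.1% lower at 24 h, and 16.9% and 16% at 48 h, and each list's count stands beside these shares with no test of its own. Of 28 tested genes of vasopressin to cyclic AMP signalling, 3 were called higher and 4 lower at 24 h, a share no larger than that over all genes, with the phosphodiesterase genes Pde1a (-0.45) and Pde4d (-0.34) and the receptor kinase gene Grk4 (-0.62) lower. At 48 h 2 were higher and 6 lower, with Pde3b (-0.45) and Pde3a (-0.75) lower and the protein kinase A catalytic gene Prkaca (0.24) higher. The list had a median of 0.02 at 24 h and -0.17 at 48 h on the log2 scale. Of 26 genes of aquaporin-2 trafficking and turnover, 7 were higher and 8 lower at 24 h, with the vesicle gene Vamp3 (0.55), the clathrin heavy chain gene Cltc (0.36) and the ubiquitin ligase adaptor gene Ndfip2 (0.30) higher. At 48 h 7 were higher and 3 lower, with Rab7 (0.54), Ezr (0.52) and Dnm2 (0.50), which act in endocytosis and at the apical cytoskeleton, higher. Ezr had been called lower at 24 h (-0.31).

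The tonicity list holds targets of NFAT5, the factor that answers high salt in the medulla. The list also holds genes that make, carry or break down osmolytes (Gpcpd1 among the last), so its genes need not move the same way. Of its 14 tested genes 6 were higher and 2 lower at 24 h, with a median log2 fold change of 0.30. The aldose reductase gene Akr1b3 (0.50) and the chaperone gene Hsph1 (0.56) were higher, and the taurine transporter gene Slc6a6 (-0.52) and Nfat5 itself (-0.26) were lower. At 48 h none was higher and 3 were lower, with a median of -0.40: Slc38a2 (-0.65), the inositol transporter gene Slc5a3 (-1.15) and Gpcpd1 (-0.43). With the medulla score as a covariate these 3 values were -0.45, -0.65 and -0.42, the last no longer called (edgeR adjusted p = 0.0507), beside the medulla score's difference of -0.55 at 48 h given above. Of 18 transcription factors of the collecting duct, 2 were higher and 6 lower at 24 h, with Hoxd8 (0.33) and Tfcp2l1 (0.38) higher and Hoxb7 (-0.42) lower. At 48 h 3 were higher and 2 lower, with Emx1 (0.55) higher and the mineralocorticoid receptor gene Nr3c2 (-0.19) lower. With the medulla score as a covariate 6 were higher and 0 lower at 48 h, and the Nr3c2 call ended (-0.19, edgeR adjusted p = 0.0625).

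Of 15 tested genes of prostaglandin E2, purine and related signals, 4 were higher and 2 lower at 24 h. Among them were Ptges3 (0.46), the calcium-sensing receptor gene Casr (-0.32) and P2rx4 (-0.36). At 48 h 2 were higher, Ptges2 (0.39) and P2rx4 (0.44), and 2 were lower, among them the cyclo-oxygenase gene Ptgs1 (-0.60). Of 6 genes of urea synthesis and handling, 2 were higher and 2 lower at 24 h. The mitochondrial carriers Slc25a13 (0.37) and Slc25a15 (0.23) were higher and argininosuccinate synthase, Ass1 (-0.47), was lower. At 48 h Slc25a15 was lower (-0.23). Of 11 genes of salt transport in the loop of Henle, 3 were higher and 2 lower at 24 h, with the paracellular channel gene Cldn16 (0.62) higher. At 48 h 3 were higher, among them Cldn10 (0.54) and Cldn16 (0.44), and none lower. Of 6 other aquaporins 2 were tested at 24 and 48 h and 3 at 72 h. Aqp1, the water channel of the proximal tubule and descending thin limb, was lower at 48 h (-0.54). At 24 h neither tested gene was called, and with the medulla score both were lower, Aqp1 (-0.20, edgeR adjusted p = 0.0144) and Aqp6 (-0.38, edgeR adjusted p = 0.0167). At 72 h no gene of any of these 8 lists was called.

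In the single nuclei, 16500 nuclei of 4 mice at 24 h carry the authors' deposited class labels, and 23 of 30 classes had at least 10 nuclei in every mouse. Median depths per mouse were 7581 to 9909 estimated UMI counts per nucleus, and 18 barcodes occurred in more than 1 library. The labels were compared with markers. The classes were named partly with such genes, so neither this nor the members' levels by class is an independent check. The principal cell marker Fxyd4 was highest in the classes labelled CPC (860.2 CPM) and MPC (382), and Elf5, another, in MPC (231). Slc26a4 was highest in ICB (6011), Slc4a1 in ICA (204), Upk1b in Uro (303), Slc7a13 in PTS3 (2858) and Slc5a12 in PTS1 (3833). CPM here are UMI counts summed over the nuclei of a class and scaled to the class total of that mouse, without TMM, and class values are means of 4 mice.

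Avpr2 was highest in MPC, with 50.8 and 47.9 CPM in shams and 51.9 and 39.8 in UNx. In CPC it had 42.9 and 41.4 CPM in shams and 57.0 and 34.5 in UNx. These 2 classes did not differ beyond their spread over mice (47.6 ± 5.46 and 43.9 ± 9.43 CPM, SD, n = 4), and CNT followed with 22.7 ± 3.07, below every value of MPC and CPC. A UMI of Avpr2 was found in 24.8 to 37.9% of MPC nuclei. In PTS1, a proximal tubule class that should lack the gene, 0.313 and 0.390% of nuclei had one in the mice of labelled batch 3, and 6.28 and 6.32% in those of batch 4. The median depths were 7534 to 9277 UMI in MPC and 8358 to 12414 in PTS1. Thinned to 1750 UMI per nucleus, the shares were 7.26 to 10.0% in MPC and 0.0583 to 0.997% in PTS1. Avpr1a was read from 175 UMI in all, of which 63 lay in the intercalated class ICB and 65 in ICA. ICB had 94.5 and 15.9 CPM in shams and 66.4 and 4.91 in UNx, and ICA had 41.6 and 5.01 in shams and 29.3 and 13.3 in UNx. In both classes the batch 3 mice were above the batch 4 mice, by more than the difference between sham and UNx of the same batch.

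Adcy6 was read in every class. It was highest in ATL (278 ± 39.5 CPM, SD, n = 4), above every mouse of the class DTL3-ATL (161 ± 58.0), which overlapped MPC (131 ± 13.7) and MTAL (126 ± 6.07). The lowest class was PTS2 (31.8 ± 13.2). Aqp2 was highest in MPC, with 518 and 668 CPM in shams and 714 and 381 in UNx. CPC overlapped it, with 507 and 474 CPM in shams and 459 and 406 in UNx. CNT was lower (140.0 ± 60.9 CPM, SD, n = 4, range 78.4 to 206). A UMI of Aqp2 was present in 89.2 to 95.2% of MPC nuclei, and in PTS1 in 11.8 and 12.7% of the batch 3 mice and 73.6 and 52.6% of the batch 4 mice, with PTS1 levels of 13.0 and 12.2 CPM and of 149.7 and 101 CPM. Thinned to 1750 UMI, the shares were 47.8 to 63.7% in MPC and 2.21 to 21.5% in PTS1. Aqp2 values outside MPC and CPC overlap these PTS1 levels, those of CNT among them. The class Per (125 CPM, range 74.0 to 200) overlapped CNT. Over both batches, the levels outside MPC and CPC therefore do not tell expression from background. In the batch 3 mice alone, the PTS1 levels of 13.0 and 12.2 CPM lay below the lowest CNT value of any mouse (78.4 CPM). They also lay below the lowest Per value (74.0 CPM). Whether the CNT level is expression or background was not tested.

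Aqp3 was highest in CPC, with 119 and 42.7 CPM in shams and 115 and 36.1 in UNx, and MPC (29.7 ± 12.7) and CNT (22.9 ± 13.4) followed and overlapped. Aqp4 was highest in MPC, with 817 and 288 CPM in shams and 825 and 357 in UNx, and next in CPC (216 ± 88.4). For both genes the mice of a batch lay together and the operation did not separate them. Aqp7, a water and glycerol channel, was highest in PTS3, with 65.2 and 24.2 CPM in shams and 40.9 and 29.4 in UNx, ahead of PTS2 (11.9 ± 3.84) and PTS1 (9.69 ± 3.43). Aqp11 was at similar levels in PTS2 (46.8 ± 8.20), PTS3 (41.2 ± 5.22) and PTS1 (35.7 ± 1.90). Of the 5 aquaporins among the 10 genes, Aqp7 and Aqp11 were those whose bulk values had a negative r against the medulla score.

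Slc14a1 was highest in Uro, with 72.3 and 89.3 CPM in shams and 227 and 81.5 in UNx, and next in the endothelial class EC2 (49.9 ± 13.7), the class with the highest level of the endothelial marker Plvap (494). Slc14a2 was the most concentrated of the 10, with 78.6% of its UMI in MPC. MPC had 14655 and 7526 CPM in shams and 16628 and 6841 in UNx, again apart by batch. DTL1 followed with 2883 ± 1612 CPM and Uro with 1689 ± 1637 (SD, n = 4). MPC made up 2.88 and 5.49% of nuclei in shams and 3.84 and 4.66% in UNx.

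**Figure D4:**
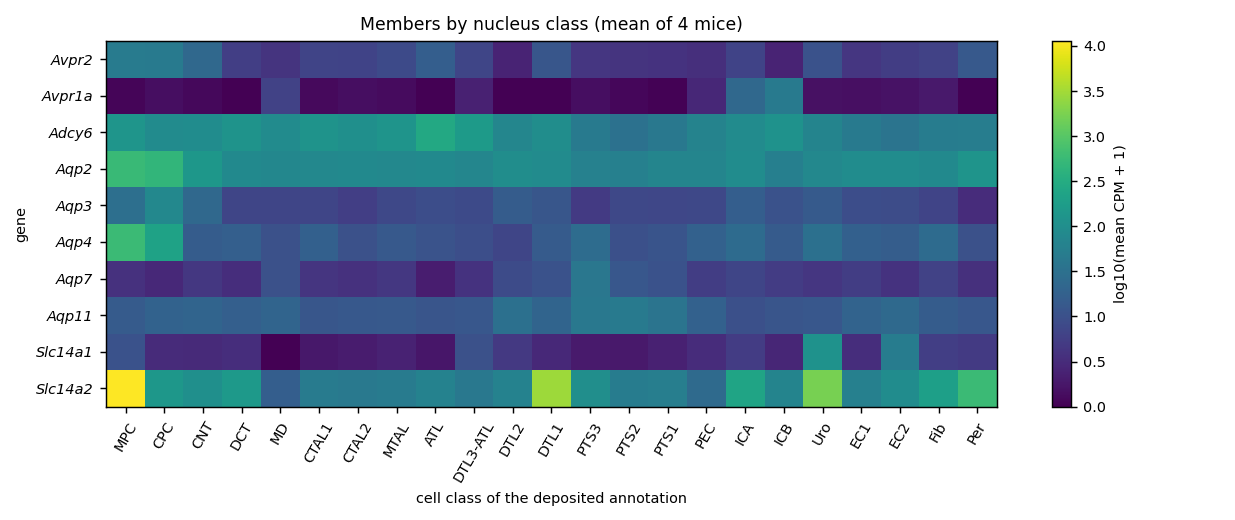
Mean level over 4 mice (colour, log10 of mean CPM + 1) of each gene (y axis) in the 23 nucleus classes (x axis). Avpr2, Aqp2, Aqp3 and Aqp4 are highest in MPC or CPC, Slc14a2 in MPC, Avpr1a in ICB and ICA, and Aqp7 and Aqp11 in PTS3 and PTS2.

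In the 23 classes 2 to 9 of the 10 genes passed the filter on low counts, and none of those tested passed the threshold. With 2 mice against 2, edgeR called 0% of the genes of every class, such as 0 of 12035 in MPC, where 40 had an unadjusted p under 0.05 and DESeq2 also called 0. Over all classes DESeq2 made 69 calls, none of them a member. For the 10 genes, an exact permutation test of 2 against 2 could not go below p = 0.333. In MPC the log2 fold changes were -0.05 for Avpr2 (SE 0.31), -0.05 for Aqp2 (SE 0.41), 0.13 for Aqp4 (SE 0.69) and 0.12 for Slc14a2 (SE 0.81), and in CPC 0.13 for Avpr2 (SE 0.37), so a change of the size seen for Avpr2 in bulk at 24 h was not detectable with these mice. Aqp7 in PTS2 had -0.76 (SE 0.32) and Adcy6 in ATL 0.32 (SE 0.27). Avpr1a had -0.53 in ICB (SE 1.35) and -0.21 in ICA (SE 0.96). With the labelled batch as a block, which pairs the mice, Slc14a2 was called in 2 classes. In CPC it had 1.61 (SE 0.29, edgeR adjusted p = 0.00443, with 0.203% of 9843 genes called), from 7.86 and 125 CPM in shams and 9.36 and 409 in UNx. In ICA it had 1.49 (SE 0.23, edgeR adjusted p = 1.2e-07, with 0.797% of 8778 genes called), from 123 and 82.9 CPM in shams and 164 and 550.5 in UNx. In both classes the highest value came from the UNx mouse of batch 4, and batch 3 rose far less. With so few mice, edgeR's SE and p lean on spread shared across genes and do not measure this disagreement between the batches. In PTS1, where the gene is not expected, the 2 batch 4 mice had 122 CPM (sham) and 80.0 CPM (UNx) against 5.53 and 7.66 in batch 3, and the part of free RNA in the 2 calls was not tested.

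**Figure D5:**
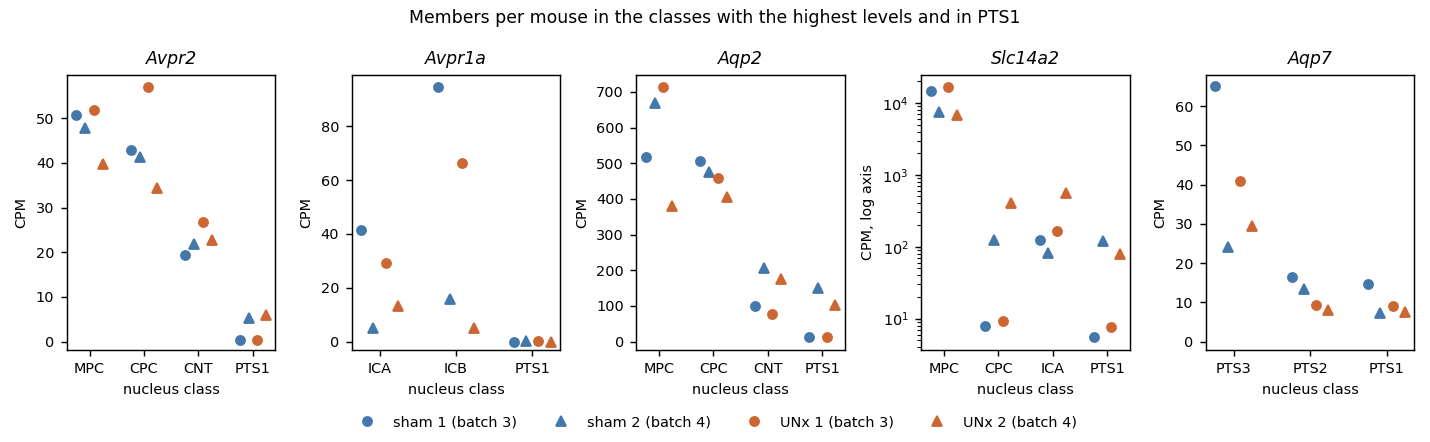
CPM (y axis, log scale for Slc14a2) of 5 genes in each of the 4 mice, by nucleus class (x axis). Sham is in blue, UNx in orange, circles are batch 3 and triangles batch 4. The classes are those with the highest levels and PTS1, other than for Slc14a2. Its panel holds MPC, its highest class, PTS1, and CPC and ICA, where the batch block called it. DTL1 and Uro, with higher Slc14a2 levels than CPC and ICA, are not shown. Sham and UNx are not separated in MPC, and the batch 4 mice carry more Aqp2 and Slc14a2 in PTS1.

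The genes whose levels over the 23 classes were most like those of a member were taken from 7090 genes with at least 50 CPM in some class. For Aqp2 they were the ion transport regulator gene Fxyd4 (r = 0.918), the prostaglandin receptor gene Ptger1 (0.894) and Ros1 (0.865). For Avpr2 they were Ptger1 (0.817), Myh10 (0.804) and Gars (0.793). For Slc14a2 they were Tmem248 (0.825), Wnt4 (0.823) and Nfe2l3 (0.778), and for Aqp7 Nceh1 (0.888), the DNA demethylase gene Tet2 (0.871) and the vitamin C transporter gene Slc23a1 (0.859). These r values are a description over classes that share libraries and depth.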

How the data were processed

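Bulk values are estimated counts per gene that the authors deposited. Per the submitters' processing notes they used FastQC 0.11.8, Salmon 1.5.0, R 4.10 and GRCm39. The nuclei are estimated UMI counts that the authors deposited with class labels, made with alevin and Seurat on mm10 (versions not given). The bulk kit marks strand, and the strand setting of the counting is not given in the sources used here. Gene IDs were matched to GENCODE M21 symbols (127 of 28467 without one), and coordinates are GRCm38. Promoter sequences are from RefSeq (GRCm38.p6). No column of per-sample values was left unused (0).

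Estimated counts were rounded, filtered with filterByExpr, scaled by TMM and tested with edgeR 4.0.16 in R 4.3.3 (quasi-likelihood, two-sided, Benjamini-Hochberg over all tested genes), 6 against 6 per time. Nuclei counts were summed per mouse and class (2 against 2). DESeq2 1.42.0, limma 3.58.1 voom, other filters, covariates and left-out libraries were alternatives. No 2 libraries of a group agreed within sampling noise (90 pairs, lowest chi-square per gene 5.17). Scripts were tested on simulated data with genes changed by known folds. At a 2-fold change in bulk, edgeR recovered 87.1, 90.4 and 90% of the changed genes at 24, 48 and 72 h. Of the bulk calls, 3.05 to 4.52% were false with edgeR and 12.1 to 14% with DESeq2. In simulated MPC nuclei edgeR recovered 0% even at a 4-fold change, and 73.8% of DESeq2 calls were false. Scores use a prior count of 2 in log2 CPM and exact permutation over 924 splits. Doublets were not called again.

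The nuclei's replicate numbers mark the labelled batch, so they pair the mice: the replicate difference in shams and in UNx had r = 0.849 over all nuclei and 0.443 to 0.867 over the 23 classes. The members and lists were chosen with earlier results of these data known. Named genes are all 10 members, at most the 3 called genes of lowest p per list and time, marker genes, and the 3 genes most like each of 4 members. Aqp6, Ezr, Hoxb7 and Nfat5 at 24 h were named after their values were seen. Some named genes that this rule gives, and some markers of the medulla score, are not reported here.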

Additional observations from a re-analysis of the deposited data

Results flagged for a closer look

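In 60 combinations of a gene and a group of 6 bulk libraries, 15 held a library that lay far from the other 5. Chance would give about 1 in 20, or 3 of 60, if the values were normally distributed and independent. Most of these genes followed the medulla score, so the combinations are not independent, and 15 cannot be set against 3 as a test. UNx replicate 6 of 72 h accounted for 7 of the 15. It was the highest of its group for Aqp2 (493 CPM), Aqp4 (97.5), Slc14a1 (11.3), Slc14a2 (169) and Adcy6 (146), and the lowest for Aqp7 (13.2) and Aqp11 (36.0). Sham 5 of 72 h was the highest for Aqp2 (342 CPM), Aqp4 (102), Slc14a1 (14.0) and Slc14a2 (117). Both libraries have the highest Cryab values of their groups, 542 and 359 CPM. UNx replicate 2 of 48 h was the highest for Aqp2 (284 CPM), Aqp3 (133) and Aqp4 (60.8), with 144 CPM of Cryab, the highest of its group. UNx replicate 6 of 24 h was the highest for Aqp3 (118 CPM), with 68.5 CPM of Cryab, inside the range of its group.

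The effect of nephrectomy on 3 genes differed between 24 and 48 h by a test of the difference itself: Avpr1a (0.70), Aqp3 (-0.48) and Avpr2 (-1.05), as 48 h minus 24 h on the log2 scale. The 2 times belong to different labelled batches, each compared with its own shams, and 5 of the 6 UNx libraries of 48 h have a mitochondrial share of 25.8 to 26.4%, against 14.0 to 15.5% in the 48 h shams. The part of that share in the 3 differences was not tested in the fit of all libraries.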

How the results depend on the processing

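Of the values under alternatives that leave out no single library, 534 of 621 kept both direction and side of the threshold, as did 459 of 544 with 1 library left out. The medulla score's difference kept its direction and missed p of 0.05 under all 9 alternatives at each time.

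All values here are log2 fold changes unless called genes or members. At 24 h, members called were 1 without a filter, 0 with all 36 libraries in 1 fit, 1 with the medulla score and 0 with the mitochondrial share, where 677 genes were called. Slc14a2 was 0.30 by voom and -0.83 with the mitochondrial share, Slc14a1 -0.0011 with the medulla score and -0.10 with the mitochondrial share, and Aqp11 0.043 with that share. At 48 h, members called were 2 by voom, 2 with all 36 libraries, 6 with the principal cell score, 0 with the mitochondrial share, 0 without UNx replicates 1 to 5 and 0 without shams 1 and 3; 0 genes were called with the mitochondrial share (1713 at an unadjusted p under 0.05) and 0 without UNx replicates 1 to 5, where 1 UNx library is left. Aqp7 was 0.00071 by DESeq2, 0.00079 with its size factors and 0.0072 by voom. Aqp2 and Aqp4 were 0.10 and 0.043 with the medulla score and 0.079 and 0.13 without shams 1 and 3. Avpr1a was -0.13 with the mitochondrial share and -0.14 without UNx replicates 1 to 5. At 72 h, genes called were 664 by DESeq2, 809 by voom, 790 with the medulla score, 609 with the principal cell score (1 member) and 672 without sham 5 and UNx replicate 6. Aqp2 was -0.0013 by voom, -0.099 with the medulla score and -0.084 without those libraries, and Aqp7 0.0072 with the medulla score. With the mitochondrial share Aqp4 was 0.24, Avpr1a -0.025, Slc14a1 0.35 and Adcy6 0.12. The cause of these changes was not tested.

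Differences between times with the medulla score were 0.33 for Aqp4, 0.066 for Slc14a2 and 0.018 for Adcy6 (48 minus 24 h), -0.21 for Aqp2, -0.44 for Aqp4, 0.069 for Aqp7 and -0.26 for Slc14a1 (72 minus 48 h), and -0.018 for Aqp11 (72 minus 24 h). With the principal cell score 4 members were called for 72 minus 48 h (Aqp7 0.00038), and for 72 minus 24 h Aqp4 was 0.24 and Aqp11 -0.028. In nuclei, calls over all classes were 69 by DESeq2, 36 without a filter and 1582 with the batch as a block (2 members), and Aqp11 in PTS2 was 0.0035 without a filter.

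With 1 library left out, genes and members called were 3102 to 4137 and 1 to 3 at 24 h, 3727 to 6004 and 1 to 5 at 48 h, and 102 to 677 genes and 0 members at 72 h. The 5 members at 48 h came without UNx replicate 2, and the 677 genes at 72 h without UNx replicate 6. The other 72 h libraries whose removal moved the count by over 1.5 times were shams 3, 4 and 6 and UNx replicates 1, 3, 4 and 5, each to between 102 and 165. For 72 minus 48 h, 3766 genes and 1 member were called without UNx replicate 6 of 48 h. In nuclei 5 to 77 calls were made over the classes and 0 of members. At 24 h Aqp11 ran from -0.11 to 0.0043, Aqp4 from -0.27 to 0.14, Slc14a1 from -0.019 to 0.31 and Slc14a2 from -0.36 to 0.090. At 48 h Aqp7 ran from -0.072 to 0.026. At 72 h Adcy6 ran from -0.15 to 0.072, Aqp2 from -0.56 to 0.67, Aqp4 from -1.05 to 0.60, Aqp7 from -0.069 to 0.049, Slc14a1 from -0.74 to 0.30 and Slc14a2 from -0.081 to 0.70. In nuclei the ranges were -0.34 to 0.24 for Aqp11 in PTS2, -0.91 to 0.60 for Aqp7 in PTS3, -0.95 to 2.05 for Avpr1a in ICA and -3.21 to 1.15 in ICB. They were -0.54 to 0.19 for Slc14a1 in EC2 and -1.16 to 0.37 for Slc14a2 in DTL1. In CPC they were -1.06 to 0.84 for Aqp3, -0.79 to 0.40 for Aqp4 and -0.18 to 0.37 for Avpr2. In MPC they were -0.54 to 0.34 for Aqp2, -0.51 to 0.77 for Aqp3, -0.55 to 1.15 for Aqp4, -0.22 to 0.14 for Avpr2 and -0.62 to 0.75 for Slc14a2.

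The bulk replicate numbers do not pair the mice: over 18 pairs r was -0.297 to 0.141, with 2 over 0.1. With the replicate number as a block 3186, 4404 and 120 genes and 1, 1 and 0 members were called at 24, 48 and 72 h, and Slc14a2 at 24 h was 0.18. The batch block in nuclei changed no other call of a member. Depth limits Avpr1a most, with 175 UMI in all nuclei.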

Other observations

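Classes with fewer than 10 nuclei in a mouse were left out of the tests. Among them, Aqp7 in the class labelled Adipo had 108 and 124 CPM in shams and 86.1 and 38.2 in UNx, from 2 to 37 UMI per mouse. Nuclei of this class were 5 and 2 in shams and 6 and 55 in UNx.

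Slc14a2 in the class labelled Podo was listed at 0 in both batch 3 mice and at 552 CPM (sham) and 303 CPM (UNx) in the batch 4 mice.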
